A study of Caenorhabditis elegans with 4 samples.

Results

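Chromosome V carried 634 of the 4256 peaks in the combined list of NFYA-1 binding regions (14.9%), on a chromosome that made up 20.9% of the summed chromosome lengths. The 634 regions are all combined peaks whose chromosome column reads V, and each was set against the peaks of both replicate lists that it overlapped by at least 1 bp. The replicate 1 list had 466 peaks on V and the replicate 2 list had 334. The peaks come from chromatin immunoprecipitation followed by sequencing (ChIP-seq) in L3 larvae of Caenorhabditis elegans hermaphrodites, which were raised at 20 °C and fixed with 2% formaldehyde. All samples came from strain OP404, in which the unc-119(ed3) mutation on chromosome III is accompanied by the transgene wgIs404, which was introduced by bombardment and holds nfya-1::TY1-GFP-3xFLA together with unc-119(+). Chromatin from whole larvae was precipitated with antibodies against green fluorescent protein (GFP), so binding in different tissues is pooled. The series has 2 ChIP samples, replicates 1 and 2, and 2 input samples, replicates 1 and 2, of the same strain and stage. The input samples had 0 peak lists here and entered no comparison. Whether both replicates were grown as separate cultures is not in the labels.

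NFYA-1 is the worm homologue of NF-YA, the subunit of the heterotrimeric factor NF-Y that contacts the CCAAT box in promoters, while the NF-YB and NF-YC subunits form a histone-like dimer. In C. elegans, NF-Y is known for repressing the Hox gene egl-5. Chromosome V is the longest worm chromosome. The arms of worm autosomes recombine more often than the centres and are richer in repeats, and the arms of V hold large families of chemoreceptor genes. Broadly expressed and conserved genes are more frequent in the centres.

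Here the centre is the middle 50% of the chromosome and each arm is 25%, measured on the largest peak coordinate of V in any list, 20899460 (WormBase WS180 build). The left arm ends at 5224865 and the right arm starts at 15674596. Peak strength is −log10 of the authors' q value, and rank 1 is the smallest q value of a whole list. Ranks place a peak within its own list of 4256 (combined), 3037 (replicate 1) or 2188 (replicate 2) peaks and show no change between lists. The peak lists give no read counts or summits, so the depth behind each peak is unknown. Intervals on shares are exact 95% binomial intervals (Clopper-Pearson) and those on densities are exact 95% Poisson intervals. Both cover counting error only and treat peaks as independent. The genes at the positions named below were not analysed here.

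Peaks were more thinly spread on V than on the other chromosomes pooled, in every list. The combined list had 30.34 peaks per Mb on V (28.0 to 32.8), against 45.7 on the other 5 chromosomes (44.3 to 47.2). Replicate 1 had 22.3 on V, against 32.46 elsewhere, and replicate 2 had 16.0 on V, against 23.4 elsewhere. Among single chromosomes, I to IV ranged between 39.8 (II) and 66.8 (III) combined peaks per Mb, while X was close to V at 32.3 (29.7 to 35.1). In the replicate lists V was above X, whose densities were 19.95 in replicate 1 and 13.9 in replicate 2. Over 500 kb bins, the combined density on V was 0.663 times that of the other chromosomes (0.564 to 0.781; quasi-Poisson fit, n = 215 bins, adjusted p = 7.10e-06 over 10 tests). The lower density held in the centre and in the arms when V was compared with chromosomes I, II, III and IV. The centre of V had 36.1 peaks per Mb, against 56.9 in the other autosomal centres, a ratio of 0.634 (0.533 to 0.755; quasi-Poisson fit, n = 88 bins, adjusted p = 7.10e-06). The arms of V had 24.6 peaks per Mb, against 42.3 in the other autosomal arms, a ratio of 0.582 (0.444 to 0.763; n = 89 bins, adjusted p = 0.000486). These p-values measure the spread between bins of one list, not between further samples or chromosomes. The fits treat neighbouring bins as independent, and the p-values depend on bin size. For V against the other chromosomes, the quasi-Poisson fit gave an adjusted p of 2.98e-08 with 250 kb bins and 0.000518 with 1 Mb bins.

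Within V the centre was denser than the arms. The combined list held 377 peaks in the centre (59.5%, where the share over all chromosomes was 56.3%), 100 in the right arm and 157 in the left arm. These correspond to 36.1 peaks per Mb (32.5 to 39.9), 19.1 (15.6 to 23.3) and 30.05 (25.5 to 35.1). Replicate 1 had 26.8, 12.4 and 23.2 peaks per Mb in the same parts, and replicate 2 had 18.0, 10.5 and 17.4. In each list, then, the centre came first, the left arm next and the right arm last, and the intervals of the centre and the left arm overlapped in each list. The centre had 1.47 times the combined density of the arms (1.14 to 1.88; quasi-Poisson fit, n = 44 bins, adjusted p = 0.00839). The call did not hold in replicate 2 alone, at 1.29 times (n = 44 bins, adjusted p = 0.160), nor among the stronger 50% of the combined list, at 1.21 times (n = 44 bins, adjusted p = 0.422). It was also lost with 1 Mb bins, at 1.47 times, and with parts of equal length, at 1.35 times. The ratio of centre to arms was 1.47 on V and 1.35 on the other autosomes, and the difference did not pass (ratio of ratios 1.09, 0.797 to 1.49; quasi-Poisson fit, n = 177 bins, adjusted p = 0.588).

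**Figure D1:**
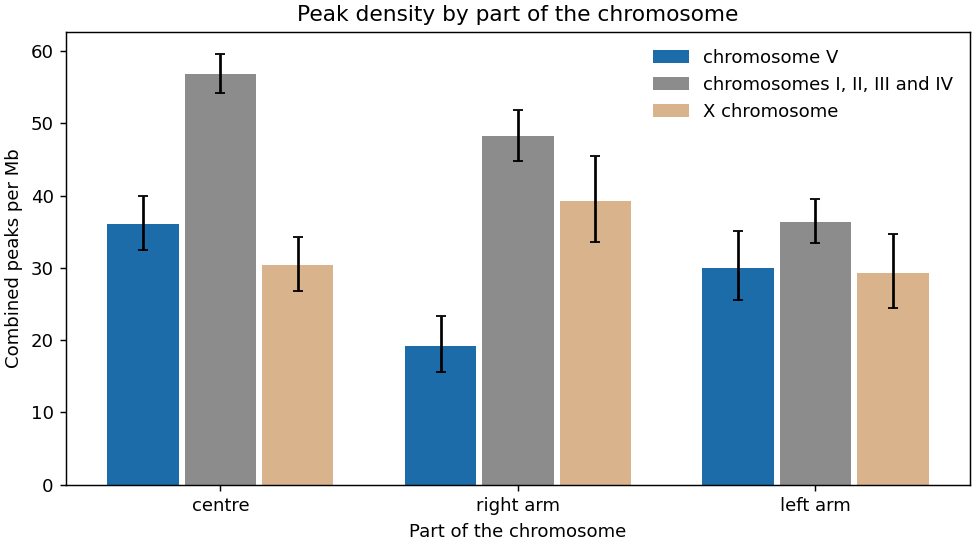
Combined peaks per Mb (y axis) in the centre, right arm and left arm (x axis) of chromosome V, of chromosomes I to IV pooled and of X. Bars are densities and error bars are exact 95% Poisson intervals. The V bar reaches 36.1 in the centre, 19.1 in the right arm and 30.05 in the left arm, against 56.9, 48.2 and 36.3 on the other autosomes.

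In all 3 lists the right arm held fewer peaks than the left arm. The right arm had 0.637 times the density of the left arm in the combined list, and the difference did not pass after adjustment (0.413 to 0.983; quasi-Poisson fit, n = 22 bins, adjusted p = 0.0848). The ratio was 0.537 in replicate 1 (adjusted p = 0.0291) and 0.604 in replicate 2 (adjusted p = 0.143; n = 22 bins), where the adjustment was over the 6 density tests alone. Without the bins of the longest stretch free of peaks it was 0.748 and did not pass. Each arm was then set against the arms of the same side on the other autosomes, in a comparison added after the values were seen. The right arm of V had 19.1 peaks per Mb, against 48.2 in the other right arms, a ratio of 0.397 (0.251 to 0.629; quasi-Poisson fit, n = 46 bins, adjusted p = 0.000820 over 4 added tests). Singly, the right arms of I, II, III and IV had 38.5, 43.0, 81.3 and 35.0 combined peaks per Mb, so that III raised the pooled value. In replicate 1 the right arm densities were 12.4 on V and 37.9 on the other autosomes pooled, and in replicate 2 they were 10.5 and 29.4. The left arm of V had 30.05 peaks per Mb, against 36.3 in the other left arms, and this difference did not pass (ratio 0.827, 0.622 to 1.10; n = 43 bins, adjusted p = 0.186). Singly, the left arms of I, II, III and IV had 41.1, 23.6, 37.5 and 42.4, so that II lowered the pooled value. The interval of the left arm of II (19.0 to 29.0) overlapped that of the right arm of V (15.6 to 23.3).

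In 500 kb bins, V ranged between 0 and 29 combined peaks, with a median of 15 over 41 full bins. The other chromosomes ranged between 2 and 55, with a median of 21 over 156 bins. No bin of V reached 30 peaks, against 38 of 156 elsewhere. The densest bin of V lay in the centre from 11500001 to 12000000, with 29 combined peaks, 23 replicate 1 peaks and 16 replicate 2 peaks. The bin 14000001 to 14500000 came next, with 27, 20 and 13. The next were 10000001 to 10500000, with 25, 20 and 13, and the left arm bin from 4500001 to 5000000, with 24, 18 and 18. Among these dense bins, the left arm one had equal counts in the replicate lists and the central ones had fewer peaks in replicate 2. This did not hold for all bins. The central bin 13500001 to 14000000 had 10 replicate 1 and 11 replicate 2 peaks, and the left arm bin 1 to 500000 had 14 and 10. Medians were 18 peaks per bin in the centre, 9 in the right arm and 15.5 in the left arm.

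**Figure D2:**
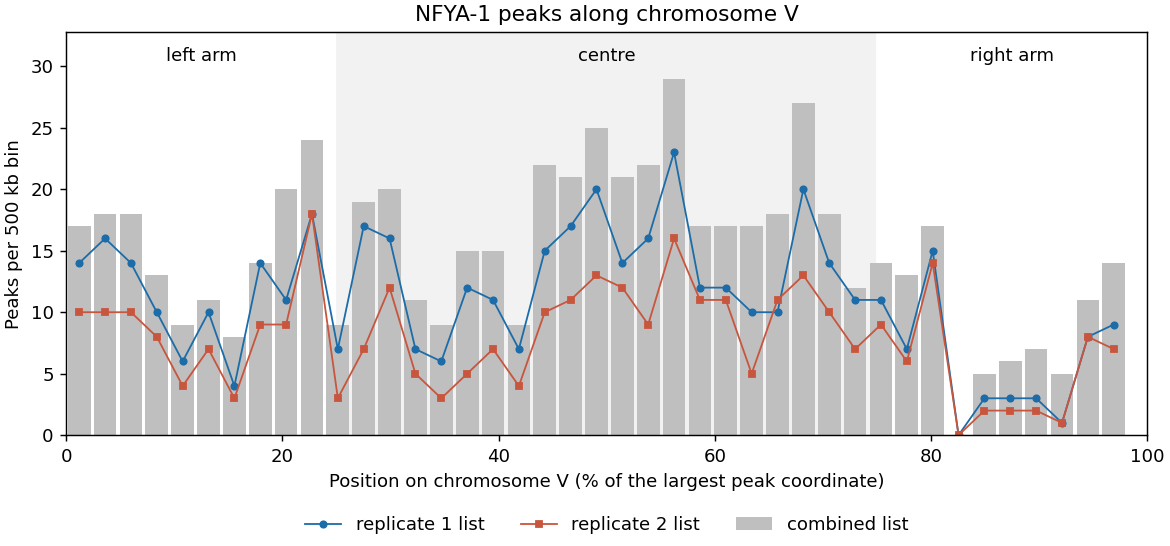
Number of peaks in each full 500 kb bin (y axis) along chromosome V (x axis, position as a percentage of the largest peak coordinate), with grey bars for the combined list and lines for each replicate list. The shaded stretch is the centre. Counts drop to 0 in all 3 lists in 1 bin of the right arm and stay at 7 or fewer over 5 neighbouring bins.

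The sparsest bins were all in the right arm. Of the full bins of V, 3 of 41 held 5 or fewer combined peaks (7.32%, against 2.03% of full bins over all chromosomes), and all 3 lay there. The bin from 17000001 to 17500000 held 0 peaks in all 3 lists. The 4 bins that follow it, up to 19500000, held 5, 6, 7 and 5 combined peaks. Together these 5 bins, which were picked after the counts were seen, held 23 combined peaks in 2.5 Mb (9.20 per Mb, 5.83 to 13.8), 10 replicate 1 peaks and 7 replicate 2 peaks. Of the 23 peaks, 7 overlapped both replicates, where 48.2% of combined peaks did over all chromosomes, and 13 overlapped neither, where 27.6% did. The rest of the right arm was denser than these bins. Its first 1.33 Mb, up to 17000000, held 35 peaks (26.4 per Mb, 18.4 to 36.7), and its last 1.40 Mb, from 19500001 on, held 42 peaks (30.01 per Mb, 21.6 to 40.6). Both values lay below the 48.2 per Mb of the other autosomal right arms pooled (44.8 to 51.8), a value raised by III. Their intervals overlapped those of the single right arms of I (32.5 to 45.3), II (36.7 to 50.1) and IV (29.7 to 41.1), but not that of III (72.1 to 91.4).

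The longest stretch of V without a combined peak ran from 16966000 to 17857730 (892 kb). No replicate peak lay inside it, and 1 replicate 2 peak reached over its edge. The peak just left of the stretch had q = 8.34e-17, and the one just right of it, from 17857731 to 17859086, had q = 1.59e-45. Both overlapped both replicates, and the right one was among the 10 strongest of the right arm. The next longest stretches were much shorter. They were 268 kb in the left arm (1475149 to 1743432), 265 kb in the right arm (19126187 to 19391249), 252 kb in the centre near its right border (15189997 to 15441553) and 248 kb in the right arm (18241686 to 18490172). The stretches of 241 kb (2327504 to 2568991) and 226 kb (2822197 to 3047905) lay in the left arm, and that of 206 kb (16132259 to 16338330) in the right arm. Of the 10 longest stretches none had a replicate peak wholly inside. Few could lie there, because 461 of 466 replicate 1 peaks on V overlapped a combined peak. So did 333 of 334 replicate 2 peaks, so this is no independent check of the stretches.

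Stretches over 100 kb without a combined peak made up 24.9% of the centre of V, 58.8% of its right arm and 34.5% of its left arm. On the other autosomes the same shares were 6.36%, 16.2% and 25.7%. Such stretches numbered 46 on V and 93 on the other 5 chromosomes, of which 60 lay on the other autosomes and the rest on X. Stretches over 200 kb numbered 8 on V and 9 on the other 5 chromosomes. The median distance between neighbouring combined peaks was 16.2 kb on V, against 11.1 kb on the other chromosomes. By part it was 14.9 kb in the centre, 19.4 kb in the right arm and 17.2 kb in the left arm. Close neighbours were about as frequent as elsewhere, since 99 of 633 distances (15.6%) were 2 kb or shorter, against 16.6% over all chromosomes. A longer median distance on V thus stood beside a like share of short ones.

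The strongest regions of V were next described, 10 in each part. All 30 overlapped both replicates, as did every peak of the strongest 20% on all chromosomes. The combined list is not independent of the replicate lists, so these overlaps follow in part from the selection by combined strength. Of the 30, 24 had a smaller q value in replicate 1 than in replicate 2. Among peaks matched one to one in all 3 lists, the same was so for 75.6% on V and 83.1% on the other chromosomes. V held 4 of the 25 strongest combined peaks, 9 of the strongest 50 and 14 of the strongest 100, where it held 14.9% of all combined peaks.

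In the centre, the strongest region spanned 14684669 to 14689656 (4988 bp). Its q value was 1.28e-173 in the combined list (rank 10), 4.45e-145 in replicate 1 (rank 11) and 1.79e-126 in replicate 2 (rank 12). The region from 6098680 to 6101795 (3116 bp) had q = 2.59e-160 in the combined list (rank 15), 1.62e-148 in replicate 1 (rank 9) and 2.11e-149 in replicate 2 (rank 6), so that the replicates were close to each other. Its replicate peaks measured 2978 and 1719 bp. The broader region 6222286 to 6230067 (7782 bp) lay to its right within the same 131 kb. Its q value was 5.88e-165 in the combined list (rank 12), 1.66e-91 in replicate 1 (rank 26) and 1.94e-68 in replicate 2 (rank 28). The region 14364331 to 14365320 was 990 bp wide in the combined list and 1000 bp in replicate 2, but 3182 bp in replicate 1 (combined q = 3.15e-120). Compact strong regions of the centre included 9860263 to 9860698 (436 bp, q = 1.08e-84) and 11503130 to 11503800 (671 bp, q = 3.43e-97). The region 13655006 to 13659571 had q = 6.65e-35 in replicate 1 and 1.16e-14 in replicate 2, where it was called as 2 peaks.

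In the right arm, the strongest region of the whole chromosome spanned 19519398 to 19523587 (4190 bp), just right of the sparse bins. Its q value was 9.55e-181 in the combined list (rank 9), 7.70e-108 in replicate 1 (rank 19) and 4.95e-75 in replicate 2 (rank 26). The next 3 lay left of the longest stretch without peaks, at 16811535 to 16812930 (q = 1.48e-109), 16361203 to 16361812 (q = 3.69e-106) and 16807884 to 16808602 (q = 1.58e-87). With 16540615 to 16541161 and 16959001 to 16959366 they formed a run of 5 of the 10 strongest right arm regions within 598 kb. A second group stood close to the right end of V, at 20471186 to 20471647 (q = 2.22e-57), 20705469 to 20709646 (q = 1.75e-37) and 20773454 to 20774628 (q = 1.36e-36). Of these, 20705469 to 20709646 was called as 2 peaks in replicate 1 and was weak in replicate 2 (q = 7.05e-07, rank 1447).

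In the left arm, the strongest region spanned 723768 to 728337 (4570 bp), with q = 3.11e-124 in the combined list (rank 30), 3.84e-69 in replicate 1 (rank 44) and 2.59e-52 in replicate 2 (rank 51). Strong regions stood close together near the border with the centre. From 4498605 to 4625109, a run of 127 kb held 11 combined peaks, 11 replicate 1 peaks and 11 replicate 2 peaks. All 11 combined peaks overlapped both replicates, where 48.2% of combined peaks did over all chromosomes. Among the 11, 8 were in the strongest 20% of the combined list, and 5 were among the 10 strongest of the left arm. The runs were delimited after the values were seen, by joining regions among the 10 strongest of a part that lay up to 300 kb apart. Strong members, which mostly overlap both replicates, thus follow in part from the selection. The 5 were 4498605 to 4500104 (q = 6.20e-103), 4539874 to 4540249 (q = 7.21e-77), 4571771 to 4572417 (q = 2.95e-71), 4623506 to 4623948 (q = 3.07e-72) and 4624703 to 4625109 (q = 2.40e-67). All but the first were narrower than 700 bp. The region 4571771 to 4572417 was stronger in replicate 2 (q = 2.56e-44, rank 77) than in replicate 1 (q = 2.94e-30, rank 287), and the other 4 were stronger in replicate 1.

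**Figure D3:**
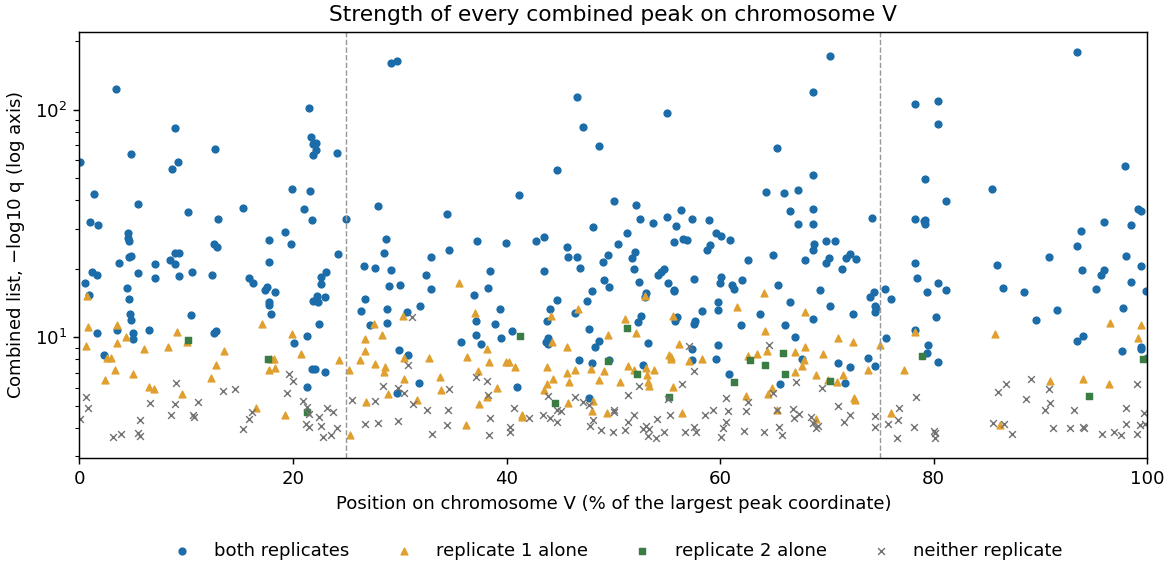
Strength of each combined peak on chromosome V (y axis, −log10 q on a log axis) against its position (x axis, percentage of the largest peak coordinate). Each of the 634 points is 1 peak, marked by the replicate lists it overlaps, and dashed lines are the borders of the parts. The strongest peaks overlap both replicates and stand in all 3 parts, up to a −log10 q of 180 in the right arm.

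The strongest 20% of the combined list were about as dense in the centre of V as in its arms, at 5.26 and 5.07 peaks per Mb. In each of the other classes of 20% the centre had the higher density. The centre had 7.94 and the arms 5.74 peaks per Mb in the second class, 7.27 and 4.88 in the third, 8.52 and 3.54 in the fourth, and 7.08 and 5.36 in the weakest. The other autosomes had a like pattern. Their centres and arms had 11.0 and 10.4 peaks per Mb in the strongest class, and the centres were denser in each weaker class too. Of the 377 central peaks, 171 (45.4%) belonged to the stronger 50% of the combined list, against 141 of 257 (54.9%) in the arms (odds ratio 0.683, 0.492 to 0.948; quasi-binomial fit over bins, added after the values were seen, adjusted p = 0.0477). In the same quasi-binomial fit the call was lost with 1 Mb bins (adjusted p = 0.0577) and with parts of equal length (adjusted p = 0.0826). The median strength was 8.56 in the centre, 9.47 in the right arm and 10.8 in the left arm. On the other autosomes it was 9.50 in the centres, 12.1 in the right arms and 9.43 in the left arms. The peaks of V as a whole were of about the same strength as those of the other chromosomes pooled, with medians of 9.35 and 9.53. The pool holds X, which had a median of 7.41, while the other autosomes had one of 9.99. The strongest 20% of the list included 108 of 634 V peaks (17.0%), against 744 of 3622 others (20.5%), and this did not pass (odds ratio 0.794, 0.609 to 1.04; quasi-binomial fit, adjusted p = 0.119). The share was 21.7% on the other autosomes and 14.6% on X, which were not tested apart.

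Combined peaks had a higher median width in the centre of V than in its arms. The median width was 504 bp in the centre (quartiles 366 and 732 bp), 460.5 bp in the right arm (341.5 and 699.5 bp) and 407 bp in the left arm (349 and 628 bp). The medians were 461.5, 509 and 394 bp in replicate 1, and 461.5, 503 and 406 bp in replicate 2, so that the left arm had the narrowest peaks in every list and the centre the widest only in the combined one. Central peaks of the combined list had a median of 431 bp on the other autosomes and 574 bp on X. Widths were not tested, since peaks of a list are not replicates. Strength and width had a Spearman's rho of 0.35 across the 634 peaks, as a description. It was 0.30 in the centre, 0.54 in the right arm and 0.37 in the left arm, and the q value may itself depend on width, which was not tested.

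Peaks of 2000 bp or wider numbered 27 on V (4.26%, against 3.67% over all chromosomes). Of these, 17 lay in the centre (4.51% of its peaks), 5 in the right arm (5%) and 5 in the left arm (3.18%). The 5 widest were all central, where 59.5% of V peaks lay. After 6222286 to 6230067 came 5838646 to 5846318 (7673 bp, q = 1.53e-38), which replicate 1 split into 3 peaks. The third, 10718859 to 10724199 (5341 bp), was weak, with q = 1.06e-11, and overlapped no replicate 1 peak and a single replicate 2 peak of 788 bp. The others were 14684669 to 14689656 and 11819649 to 11824415 (4767 bp, q = 9.63e-28). Splitting was uncommon on V and elsewhere. Of the 634 combined peaks of V, 4 held more than 1 replicate 1 peak and 1 held more than 1 replicate 2 peak. On the other chromosomes 23 and 28 of 3622 did.

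The recovery of V peaks in the replicates was then examined. Of the 634 combined peaks, 314 (49.5%, 45.6 to 53.5%) overlapped both replicates, against 48.0% on the other chromosomes. A further 143 (22.6%, against 21.7% over all chromosomes) overlapped replicate 1 alone and 18 (2.84%, against 2.42%) replicate 2 alone. The remaining 159 (25.1%, against 27.6%) overlapped neither. The share in both was not shown to differ between V and the other chromosomes (odds ratio 1.06, 0.876 to 1.29; quasi-binomial fit, adjusted p = 0.588), nor was the share in neither (odds ratio 0.857, 0.692 to 1.06; adjusted p = 0.225). Among peaks with q of 1e-05 or less, the odds of overlapping neither replicate were lower on V than on the other chromosomes (odds ratio 0.586, quasi-binomial fit, adjusted p = 0.00843).

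The share of peaks found in both replicates was 174 of 377 in the centre (46.2%, 41.0 to 51.3%) and 140 of 257 in the arms (54.5%, 48.2 to 60.7%), and the difference did not pass after adjustment (odds ratio 0.716, 0.512 to 1.001; quasi-binomial fit, adjusted p = 0.0848). Among peaks with q of 1e-05 or less it passed (odds ratio 0.584, quasi-binomial fit, adjusted p = 0.0263). On the other autosomes, at any q, the share was likewise lower in the centres (46.9%) than in the arms (52.7%), which was not tested. On V, the right arm had 52 of 100 (52.0%) and the left arm 88 of 157 (56.1%; odds ratio 0.849, 0.478 to 1.51; quasi-binomial fit, adjusted p = 0.588). Peaks found in replicate 1 alone made up 26.8% of the centre (22.4 to 31.6%), against 11.0% (5.62 to 18.8%) in the right arm and 19.7% (13.8 to 26.8%) in the left arm. Peaks in neither replicate made up 23.9%, 34.0% and 22.3% of these parts, and neither of these splits was tested.

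Recovery followed combined strength, but the combined list is not independent of the replicate lists. For V peaks matched one to one in all 3 lists, combined strength had a median of 0.932 times the summed replicate values. High shares in the strongest class and low ones in the weakest are therefore no independent check of recovery. Of the strongest 20% of combined peaks, 108 lay on V and every one overlapped both replicates. In neither replicate the count was 0 of 108, for which a limit of 3 peaks is a share of 2.78% and the exact interval reaches 3.36%. The share in both was 91.6% in the next 20% (131 of 143), then 46.5%, 12.7% (7.44 to 19.8%) and 0 of 130 in the weakest 20% (exact upper limit 2.80%). On the other chromosomes it was 100% in the strongest class, then 91.4%, 41.2%, 6.07% (4.44 to 8.06%) and 0.693%. In the second class on V, the share was 72 of 83 in the centre (86.7%, 77.5 to 93.2%) and 59 of 60 in the arms (98.3%, 91.1 to 99.96%). It was 46.1% in the centre and 47.1% in the arms in the third class, and 13.5% and 10.8% in the fourth. Peaks found in neither replicate belonged mainly to the fourth and weakest 20%. In the third 20%, 2 of 127 V peaks overlapped neither (1.57%, 0.191 to 5.57%), against 61 of 724 on the other chromosomes (8.43%, 6.51 to 10.7%). In the fourth, 41 of 126 V peaks did (32.54%, 24.5 to 41.5%), against 341 of 725 on the other chromosomes (47.0%, 43.4 to 50.7%). In the weakest, 115 of 130 V peaks did (88.5%, 81.7 to 93.4%), against 613 of 721 on the other chromosomes (85.0%, 82.2 to 87.5%). These differences within classes of strength were not tested.

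**Figure D4:**
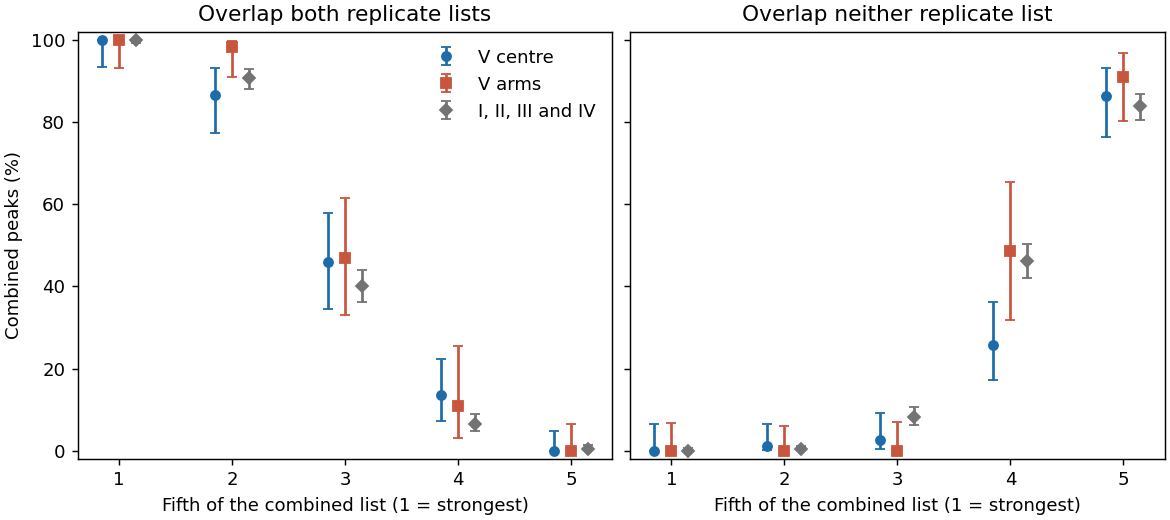
Share of combined peaks that overlap both replicate lists (left panel) or neither (right panel), in % (y axes), for 5 classes of strength of the combined list (x axes, 1 is the strongest 20%). Points are shares in the centre of V, the arms of V and chromosomes I to IV, with exact 95% binomial intervals. The share in both is 100% in the strongest class and near 0 in the weakest for all of them. The classes come from the combined list, which is not independent of the replicate lists.

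Seen from the replicate lists, replicate 2 recovered 314 of 466 replicate 1 peaks on V (67.4%, 62.9 to 71.6%), against 68.2% over all chromosomes. The share was 62.1% in the centre (56.2 to 67.9%), 80.0% in the right arm (68.2 to 88.9%) and 72.7% in the left arm (63.9 to 80.4%). Replicate 1 recovered 315 of 334 replicate 2 peaks (94.3%, 91.3 to 96.5%), against 95% over all chromosomes. The strongest V peak found in replicate 1 alone lay from 7435007 to 7437995 (q = 7.57e-13, rank 1001). It corresponds to the combined peak 7434948 to 7438000, which had the smallest q value of those found in 1 replicate (q = 4.07e-18, rank 1201). Among peaks found in replicate 2 alone, the strongest lay near the right end of V, from 20824192 to 20824692 (q = 3.18e-07, rank 1362). Of the combined peaks found in neither, 6516385 to 6517763 was the strongest (1379 bp, q = 5.18e-13, rank 1685), followed by 13497342 to 13497846 (q = 5.06e-10) and 11921158 to 11922532 (q = 6.16e-10). All 3 lay in the centre.

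Peaks matched one to one in all 3 lists numbered 307 on V. The combined list gave them a median strength of 18.4, replicate 1 one of 10.6 and replicate 2 one of 7.85. Replicate 1 was the stronger at 232 of them (75.6%, 70.4 to 80.3%), against 1411 of 1698 on the other chromosomes (83.1%, 81.2 to 84.9%), and this difference was not tested. By part the share was 80.5% in the centre (73.7 to 86.2%), 68.0% in the right arm (53.3 to 80.5%) and 70.5% in the left arm (59.8 to 79.7%). Across the 307 peaks, which share both libraries, Spearman's rho between the replicates was 0.81 and Pearson's r was 0.97, as a description. The centres of matched replicate peaks lay a median of 23 bp apart. Divided by the summed replicate values, the combined strength had a median of 0.932 (quartiles 0.842 and 1.03). The single V peak whose combined value did not exceed its better replicate was 9546131 to 9548031, with 24.97 in the combined list, 25.1 in replicate 1 and 11.6 in replicate 2.

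**Figure D5:**
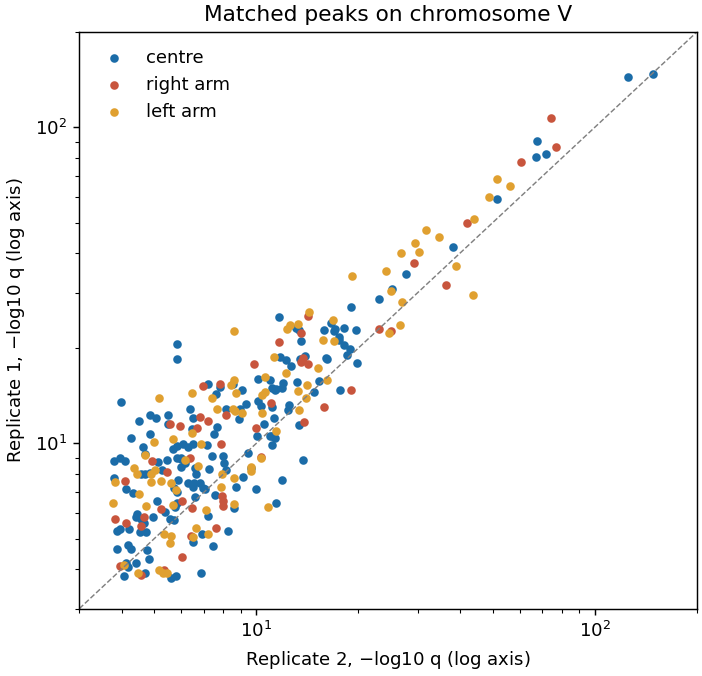
Strength (−log10 q) in replicate 1 (y axis) and replicate 2 (x axis), both on log axes, for the 307 peaks of chromosome V matched one to one in all 3 lists. Points are peaks, coloured by part, and the dashed line marks equal strength. Most points, 232 of 307, lie above the line.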

How the data were processed

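ChIP-seq of NFYA-1::GFP was deposited as 3 peak lists, 1 for each of 2 ChIP replicates and a combined one. Peaks were called with PeakSeq on WormBase WS180, per the file headers. Each peak carries a q-value that the authors deposited (2 replicate lists and the combined list), with no counts, enrichments or summits, so depth per sample is unknown. The aligner, PeakSeq version, filters, controls and the making of the combined list remain not given in the sources used here. No WS180 sequence or annotation was used, so no sequence or gene is given.

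Positions are 1-based. Chromosome length was the largest coordinate in any list. Peaks were placed by midpoint in 500 kb bins cut at the borders of the parts. Densities were compared by quasi-Poisson fits (two-sided Wald tests, log bin length as offset) and shares by quasi-binomial fits, with Benjamini-Hochberg adjustment over 6 density and 4 share tests. A further 4 tests were added after the values were seen and adjusted together, and their shares kept a dispersion of at least 1. Alternatives were other bin sizes, borders, overlaps, q thresholds, joined peaks, Fisher's exact test and each replicate alone. Alternatives that applied to only some of the results were adjusted over those results alone. The members, lists and naming rule (the 10 strongest peaks per part, the 5 widest, the 5 strongest found in 1 or neither replicate, the 5 strongest of each replicate list absent from the other, the 10 longest gaps, the 5 densest and 5 sparsest bins) were chosen with earlier results of these data known. Not every item of the rule is printed. Statsmodels 0.14.6, scipy 1.17.1, pandas 2.3.3, numpy 2.4.6 and Python 3.11.15 were used.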

Additional observations from a re-analysis of the deposited data

How the results depend on the processing

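The 14 results were recomputed under 13 alternative settings, in 105 recomputations, of which 93 kept their direction and their side of the threshold. The ratio of V to other chromosomes stayed between 0.612 and 0.691, that of V arms to other autosomal arms between 0.542 and 0.631 and that of the centres between 0.577 and 0.663, and all passed. The density ratio of centre to arms lost its call with 1 Mb bins (1.47), the stronger 50% of the list (1.21), parts of equal length (1.35) and replicate 2 alone (1.29), and with either replicate alone it was 1.29 to 1.51. The ratio of right to left arm gained a call at q of 1e-05 or less (0.554), with joined peaks (0.641) and in replicate 1 alone, and with either replicate alone it was 0.537 to 0.604. For joined peaks and for single replicates the adjustment was over the 6 density tests, not all 10, which makes a call easier. The joined ratio was no stronger than the main one of 0.637, and the unadjusted p-values of the quasi-Poisson fits were 0.0370 and 0.0425. At q of 1e-05 or less, the odds ratio of overlap with both replicates in centre against arms (0.584) and that of overlap with neither on V (0.586) passed, and that of right against left arm turned to 1.24, with neither side called. Among the stronger 50% of the list, the odds ratios of both in centre against arms (0.709) and of neither on V (0.581) did not pass. The share of the stronger 50% in the centre lost its call with 1 Mb bins (odds ratio 0.683) and parts of equal length (0.739). The cause was not tested. The alternatives that left out the longest peak-free stretch or X were added after seeing the data. The shares in both or neither replicate could not be computed without a replicate. No paired analysis was possible because every comparison is among peaks of the ChIP lists and input peaks were not analysed here. Without depths, list lengths cannot be set against reads.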

Other observations

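The left tip of V carried a strong region of its own. The first combined peak started 8.04 kb from the start of the chromosome, had q = 6.30e-60 and overlapped both replicates. Of the replicate peaks on V, 5 of replicate 1 and 1 of replicate 2 overlapped no combined peak.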
